A study of Homo sapiens with 10 samples.

Results

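The genes described here are 45 genes of ribosome biogenesis and of RNA polymerases I and III, measured by RNA sequencing in QGP-1 cells. They were chosen by gene symbol, as a list that runs from MYC and the polymerase subunits to the nucleolar proteins, the small nucleolar ribonucleoproteins (snoRNPs) and the assembly factors of both ribosomal subunits. All 45 were found by name among the 35606 gene identifiers of both expression tables. All 45 also had a mean of at least 1 CPM in each table, the limit for testing. CPM here is a gene's reads scaled for library size, with library totals that differ slightly.

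Ribosomes are made in the nucleolus. RNA polymerase I transcribes the large ribosomal RNA precursor there, while RNA polymerase III makes the smallest ribosomal RNA and the transfer RNAs. Guided by snoRNPs, the precursor is methylated and pseudouridylated, and assembly factors then cleave and fold it with ribosomal proteins into the small and the large subunit. MYC is a transcription factor known to drive many of these genes, and the kinase mTOR is known to couple the activity of both polymerases to nutrients and growth signals.

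QGP-1 is a human pancreatic neuroendocrine tumor cell line, and 10 libraries in 5 groups of 2 were compared. In the knockdown experiment, cells with stable CRISPR interference (dCas9-KRAB, which represses transcription at the site a guide selects) carried the non-targeting guide sgNC or sgPIKFYVE-1, a single guide against PIKFYVE, the lipid kinase of endosomes and lysosomes. Both lines were made with lentivirus and puromycin selection, so the control line carried the interference vector too. In the drug experiment, QGP-1 cells labelled wild type received DMSO, 1 µM apilimod, an inhibitor of PIKfyve, or 100 nM Torin-1, an inhibitor of the mTOR kinase. The labels give 24 h of exposure for both drugs, whereas the study's text gives a shorter time for the sequenced cells. No label says that the 2 samples of a group were separate cultures, so the p-values measure only the spread between these samples, which may be technical.

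From the steps between low values, each library held an estimated 9.30 to 13.6 M reads, at which 3 reads correspond to 0.227 to 0.329 CPM. PIKFYVE itself was at 101 and 97.5 CPM with sgNC and at 10.9 and 12.5 CPM with sgPIKFYVE-1, a log2 fold change of -2.98. Neuroendocrine markers were present in every library, with CHGA at 389 to 458 CPM and INSM1 at 71.5 to 249 CPM. Of the 10 markers of fibroblasts, leukocytes and endothelium, COL3A1 and CD3E were at 0 in all 10 libraries, COL1A1 was at 1.27 to 9.60 CPM and PECAM1 at 0.895 to 3.75 CPM, and the other 6 reached at most 0.278 (CDH5) to 1.13 CPM (CD68). Every value is relative to its library. Fewer ribosome-making cells and less of these transcripts per cell therefore cannot be told apart. A change in total RNA per cell would not be seen.

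In the control libraries, NPM1 and NCL were the most abundant transcripts among the members. On a scale of CPM per kilobase of median coding transcript, NPM1 had the highest level in both controls, with 433 and 445 CPM per kilobase in sgNC and 697 and 707 in DMSO. NCL was next, with 184 and 199 in sgNC and 364 and 351 in DMSO, and the replicates of NPM1 and NCL did not overlap. The lowest levels belonged to UTP20 in sgNC, at 3.03 and 3.19 CPM per kilobase, and to POLR3B in DMSO, at 5.39 and 6.54. In sgNC the nearest neighbour of UTP20 was POLR3B, at 3.49 and 3.21, which did not overlap with it but did overlap with POLR1E, at 3.20 and 3.85. In DMSO the 4 lowest members, POLR3B, POLR3G, POLR1E and UTP20, overlapped. The knockdown and drug tables were scaled separately, so levels were not compared between them.

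PIKFYVE knockdown was accompanied by higher levels of most of these genes. Of the 45 members, 29 passed the test as higher with sgPIKFYVE-1, or 64.4%, beside 21.6% of the 13591 genes tested (limma on log2(CPM + 1), adjusted p under 0.05). None passed as lower, beside 20.9% of all genes, and 0 were lower at an unadjusted p under 0.05, beside 24.4%. In 40 members both knockdown libraries lay above both controls, beside 35.4% of all genes, and in none did both lie below, beside 35.2%. The median log2 fold change of the members was 0.36, and that of all genes was -0.004.

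Torin-1 was accompanied by lower levels of most of them. Here 29 of 45 members passed as lower, or 64.4%, beside 21.8% of the 13520 genes tested, and 3 passed as higher (MYC, NPM1 and NOB1), or 6.67%, beside 16.6%. Both Torin-1 libraries lay below both DMSO libraries in 35 members, beside 36.6% of all genes, and above them in 7, beside 32.7%. The median log2 fold change was -0.36 for the members and -0.01 for all genes.

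Apilimod gave few calls among them. MYC and NCL passed as higher, which is 4.44% of the members beside 5.75% of all genes, and 0 passed as lower beside 2.79%. At an unadjusted p under 0.05 the limma fit gave 2 higher and 2 lower, or 4.44% each, beside 11.7% and 9.56% of all genes. Groups did not overlap in 12 members higher and 7 lower, beside 24.8% and 25.9% of all genes. The median log2 fold change was 0.02. Estimates of the 43 members that did not pass lay between -0.18 (POLR3G) and 0.15 (RRS1), and for 42 of them the 95% interval stayed within 0.5 of 0 on the log2 scale. The exception was POLR3G, whose interval ran from -0.57 to 0.20. The limit of 0.5 is wider than the median member change in the knockdown (0.36) or under Torin-1 (-0.36). Among the 43, the highest bound was 0.42, so not every interval excludes a change of that median size.

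**Figure D1:**
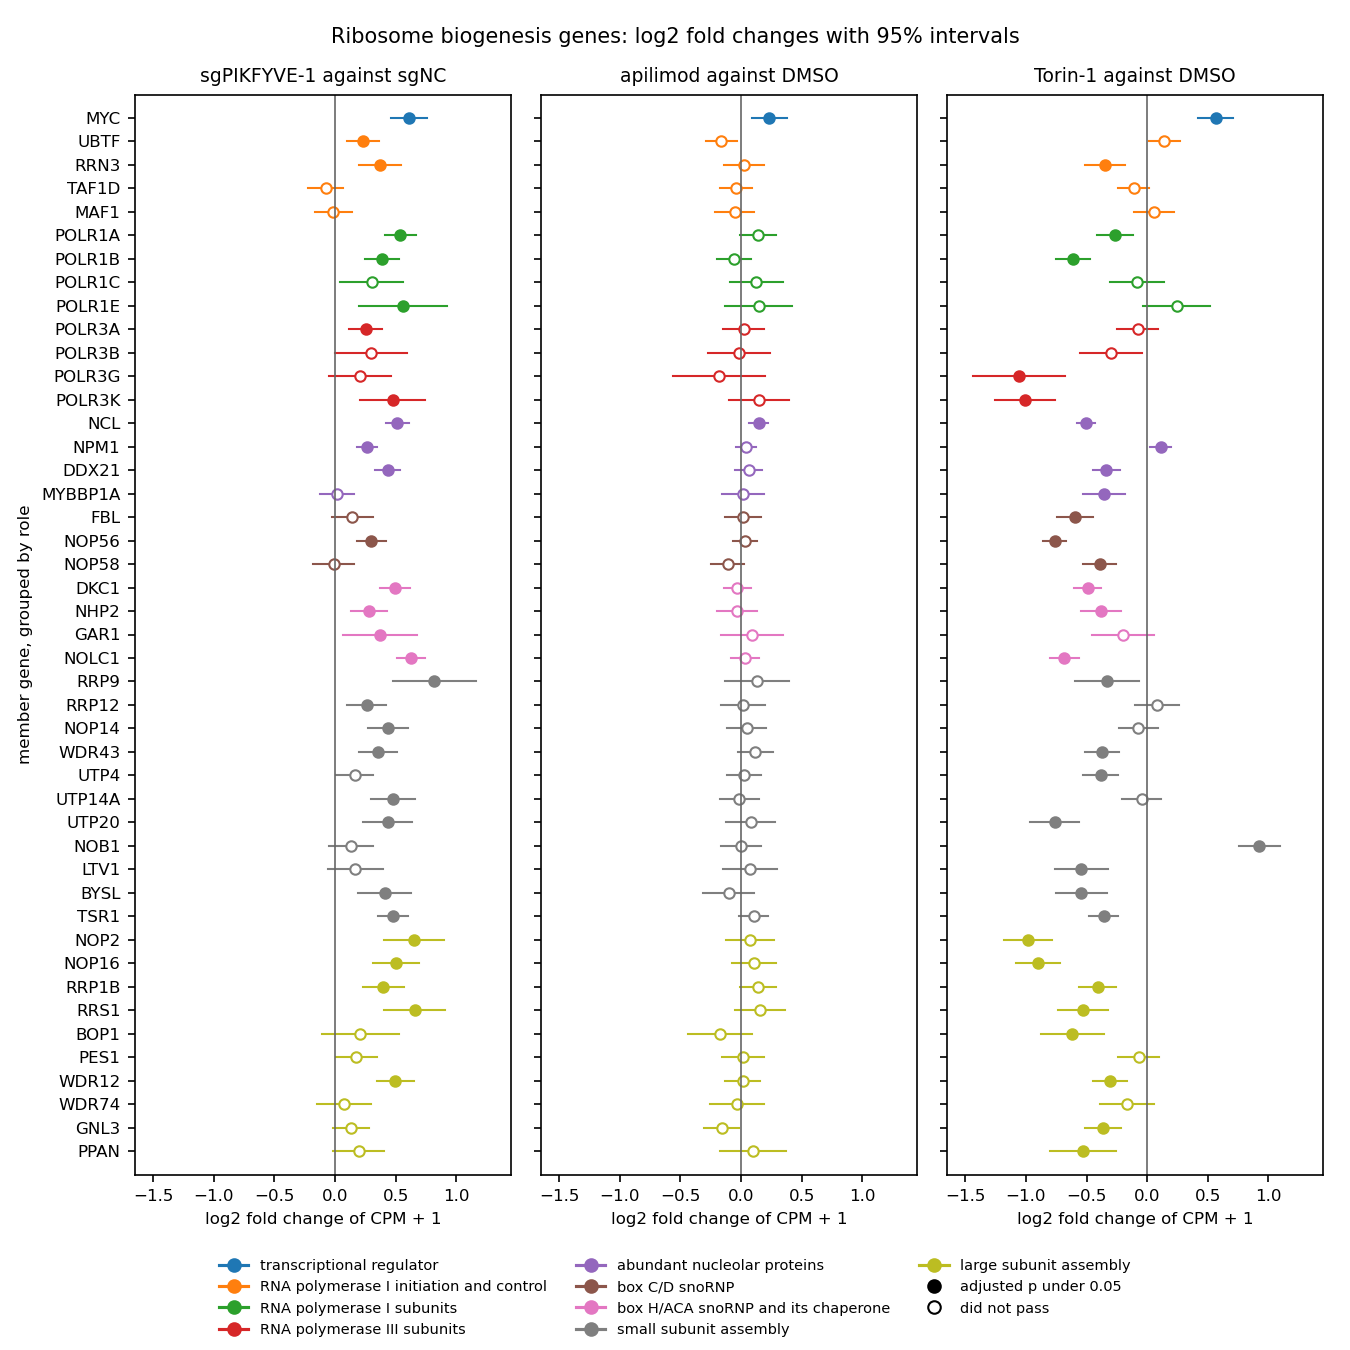
Log2 fold change of CPM + 1 (horizontal axis) for each of the 45 members (vertical axis, coloured by role) with sgPIKFYVE-1, apilimod and Torin-1, each against the control of its own table. Lines are 95% intervals from limma and filled points passed at an adjusted p under 0.05: 29 lie right of 0 in the knockdown panel, 2 in the apilimod panel, and 29 lie left of 0 in the Torin-1 panel.

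MYC was higher in all 3 comparisons. Its level was 56.5 and 60.2 CPM with sgNC and 89.5 and 89.2 CPM with sgPIKFYVE-1, which is 1.53-fold (log2 fold change 0.61 ± 0.07 SE, adjusted p = 9.69e-07, limma). In the drug table MYC was at 82.1 and 80.0 CPM with DMSO, 99.8 and 90.9 with apilimod, and 120 and 122 with Torin-1. The 3 drug groups did not overlap, and Torin-1 was the highest. Against DMSO, Torin-1 gave a log2 fold change of 0.57 ± 0.07 (adjusted p = 1.97e-05) and apilimod one of 0.23 ± 0.07 (adjusted p = 0.0488). The apilimod call was lost without DMSO replicate 1 (0.25, adjusted p = 0.181), DMSO replicate 2 (0.21, 0.28) or apilimod replicate 1 (0.16, 0.318), and in 5 of the 6 other settings that changed the normalization, the filter, the pseudocount or the fit.

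Among the factors that bring RNA polymerase I to the ribosomal DNA, RRN3, which links the enzyme to its promoter, moved in opposite directions under knockdown and Torin-1. RRN3 was at 43.9 and 48.3 CPM with sgNC and 57.7 and 62.0 with sgPIKFYVE-1, and at 61.7 and 60.4 with DMSO and 45.9 and 49.7 with Torin-1. Neither pair of groups overlapped, and the log2 fold changes were 0.37 ± 0.08 (adjusted p = 0.00121) and -0.35 ± 0.08 (adjusted p = 0.00284). The RRN3 gene shares its locus with PDXDC1 on the opposite strand, which had a mean of 92.0 CPM in the knockdown table and 80.6 in the drug table. UBTF, the architectural factor bound along active ribosomal genes, rose in the knockdown by 0.23 ± 0.06 on the log2 scale (adjusted p = 0.00551). Under Torin-1 it had 178 and 176 CPM against 160 and 160 with DMSO (0.14, adjusted p = 0.0796), and with apilimod it had 150 and 136 (-0.16, adjusted p = 0.118). The direct contrast put UBTF lower with apilimod than with Torin-1 by a log2 difference of -0.30 ± 0.06 (adjusted p = 0.000856). TAF1D, a subunit of the promoter selectivity factor, and MAF1, the repressor of RNA polymerase III, passed in none of the comparisons. TAF1D did pass as lower in the knockdown (-0.19) when sgPIKFYVE-1 replicate 2 was left out.

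Both of the largest subunits of RNA polymerase I, which form its catalytic center, rose in the knockdown and fell under Torin-1. POLR1A was at 96.1 and 101 CPM with sgNC and 150 and 137 with sgPIKFYVE-1 (log2 fold change 0.54 ± 0.06, adjusted p = 1.05e-06), with no overlap. POLR1B was at 106 and 103 CPM with DMSO and 67.4 and 68.9 with Torin-1, so it fell by 34.8% (-0.61 ± 0.06, adjusted p = 6.8e-06), and it rose by 0.39 in the knockdown. The fall of POLR1A under Torin-1 was smaller (-0.27 ± 0.07, adjusted p = 0.00785), and its call was lost without DMSO replicate 1 (-0.24, adjusted p = 0.0732) or Torin-1 replicate 2 (-0.16, 0.0835). POLR1E, a subunit that acts in initiation, rose in the knockdown from 6.55 and 7.88 CPM to 11.7 and 10.5 (0.56 ± 0.17, adjusted p = 0.0135). Its call was lost without sgNC replicate 1 (0.44, adjusted p = 0.121) or sgPIKFYVE-1 replicate 1 (0.49, 0.0843). Under Torin-1, POLR1E had a positive estimate of 0.24 that did not pass (adjusted p = 0.152). POLR1C, a subunit shared with RNA polymerase III, passed in neither comparison, with estimates of 0.30 (adjusted p = 0.058) and -0.08 (adjusted p = 0.563). Its knockdown estimate was 0.45 without sgPIKFYVE-1 replicate 1, where it passed (adjusted p = 0.0179), and 0.16 without replicate 2 (adjusted p = 0.396).

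The RNA polymerase III subunits included the members with the lowest log2 fold changes under Torin-1. POLR3G, which occurs in the enzyme as an alternative to its paralog POLR3GL, was at 21.8 and 20.2 CPM with DMSO and 8.11 and 11.3 CPM with Torin-1. POLR3K, a small subunit, was at 30.3 and 36.6 CPM with DMSO and 17.3 and 14.9 CPM with Torin-1. POLR3G fell by 53.9% (-1.06 ± 0.18, adjusted p = 0.000384) and POLR3K by 51.8% (-1.01 ± 0.12, adjusted p = 1.53e-05), and neither gene's groups overlapped. POLR3K rose in the knockdown from 15.0 and 14.3 CPM to 21.9 and 19.7 (0.47 ± 0.13, adjusted p = 0.00576), a call lost without sgPIKFYVE-1 replicate 1 (0.40, adjusted p = 0.051). POLR3G did not pass there (0.20, adjusted p = 0.189). The catalytic subunit POLR3A rose in the knockdown (0.25 ± 0.07, adjusted p = 0.00499) and was at 69.3 and 74.2 CPM with DMSO against 71.4 and 64.7 with Torin-1, so that those groups overlapped. POLR3B, its partner in the core, passed in neither comparison, with 0.30 (adjusted p = 0.0997) and -0.30 (adjusted p = 0.0664). Single libraries decided both: POLR3B passed in the knockdown without sgPIKFYVE-1 replicate 1 (0.45, adjusted p = 0.0363) but not without replicate 2 (0.15, 0.50), and under Torin-1 without DMSO replicate 1 (-0.43, 0.0381) or Torin-1 replicate 2 (-0.39, 0.0476). POLR3G overlaps MBLAC2 and POLR3K overlaps SNRNP25 on the opposite strand. Other members have expressed partners there too, such as RRN3 with PDXDC1, POLR1C with YIPF3 and XPO5, NHP2 with RMND5B and GNL3 with PBRM1. These overlaps are of whole gene bounds, and shared exons were not examined. Whether the counting used strand is not given in the sources used here, so any reads shared with such partners cannot be told apart.

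NCL (nucleolin), a nucleolar RNA-binding protein, was higher in the knockdown and lower under Torin-1. It was at 741 and 804 CPM with sgNC and 1070 and 1132 CPM with sgPIKFYVE-1, a rise of 42.5% (0.51 ± 0.05, adjusted p = 2.91e-08). In the drug table it was at 1467 and 1415 CPM with DMSO, 1604 and 1579 with apilimod, and 1013 and 1018 with Torin-1. The 3 drug groups were ordered apilimod, DMSO, Torin-1 with no overlap. Torin-1 gave -0.50 ± 0.04 (adjusted p = 1.53e-07) and apilimod 0.14 ± 0.04 (adjusted p = 0.0219), and leaving out any 1 DMSO or apilimod library ended the apilimod call (0.12 to 0.17, adjusted p = 0.07 to 0.299). NPM1 (nucleophosmin), a nucleolar histone chaperone, was slightly higher under Torin-1. NPM1 was at 1023 and 1037 CPM with DMSO and 1080 and 1146 with Torin-1 (0.11 ± 0.04, adjusted p = 0.0388), and it rose in the knockdown by 0.26 (adjusted p = 3.48e-05). Its Torin-1 call was lost without DMSO replicate 1 (0.10, adjusted p = 0.213), DMSO replicate 2 (0.12, 0.134) or Torin-1 replicate 2 (0.07, 0.236). The helicase DDX21 rose by 0.43 in the knockdown (adjusted p = 6.62e-07) and fell by 0.34 on the log2 scale under Torin-1 (adjusted p = 0.000176). MYBBP1A, a nucleolar repressor protein, fell under Torin-1 by 0.35 (adjusted p = 0.00354) and had an estimate of 0.02 in the knockdown (adjusted p = 0.865).

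**Figure D2:**
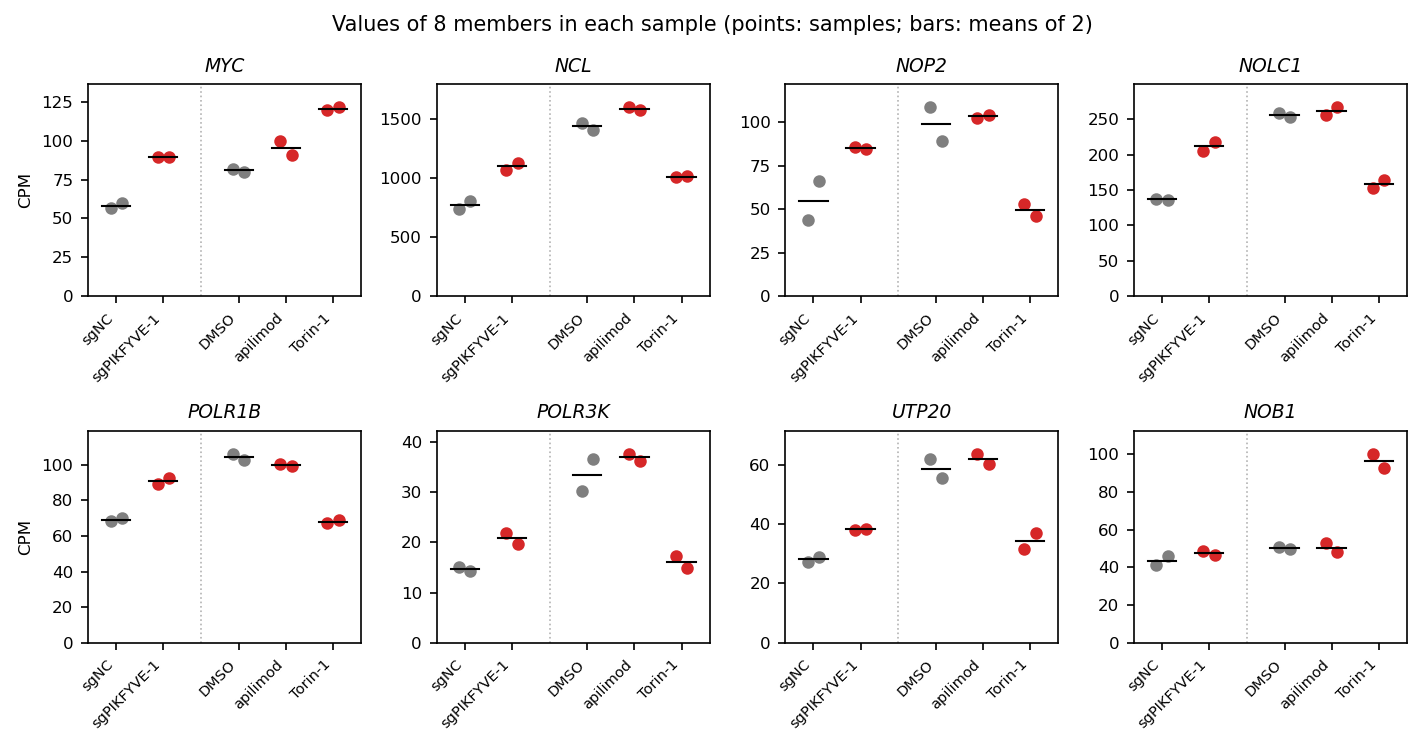
CPM (vertical axes, each from 0) of 8 members in each of the 10 libraries, with points for libraries, bars for the mean of 2, and a dotted line between the separately scaled knockdown and drug tables. NCL, NOP2, NOLC1, POLR1B, POLR3K and UTP20 are higher with sgPIKFYVE-1 than with sgNC and lower with Torin-1 than with DMSO, whereas MYC is higher in both, and NOB1 reaches 92.9 and 100.3 CPM with Torin-1.

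All 3 members of the box C/D snoRNP, which places methyl groups on ribosomal RNA, fell under Torin-1. NOP56, a scaffold of this particle, was at 437 and 425 CPM with DMSO, 436 and 444 with apilimod, and 252 and 256 with Torin-1. The DMSO and apilimod libraries overlapped, and both Torin-1 libraries lay far below them, a fall of 41.1% (-0.76 ± 0.05, adjusted p = 2.19e-08). FBL (fibrillarin), the methyltransferase, was at 80.5 and 80.0 CPM with DMSO and 53.1 and 52.5 with Torin-1 (-0.59 ± 0.07, adjusted p = 1.89e-05). The second scaffold, NOP58, fell by 0.39 (adjusted p = 0.000284). In the knockdown NOP56 rose by 0.30 ± 0.06 (adjusted p = 0.000292), whereas FBL had 0.14 (adjusted p = 0.17) and NOP58 had -0.01 (adjusted p = 0.913).

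The box H/ACA snoRNP converts uridine to pseudouridine. Its 3 listed proteins and NOLC1, the chaperone of both snoRNP classes, were higher in the knockdown. NOP10, a further protein of this particle that was not listed as a member, did not pass there, with a log2 fold change of -0.02. Under Torin-1 the estimate of NOP10 was -0.64. NOLC1 was at 138 and 136 CPM with sgNC and 205 and 218 with sgPIKFYVE-1, a rise of 54.6% (0.62 ± 0.05, adjusted p = 2.33e-08). With DMSO it was at 258 and 253 CPM, with apilimod at 256 and 267, and with Torin-1 at 153 and 165, a fall of 37.8% (-0.68 ± 0.05, adjusted p = 5.19e-07). No knockdown library overlapped with a control and no Torin-1 library with DMSO, while apilimod and DMSO overlapped. DKC1 (dyskerin), the pseudouridine synthase, rose by 0.49 (adjusted p = 1.85e-06) and fell under Torin-1 by 0.49 (adjusted p = 7.55e-06). NHP2 rose by 0.28 and fell by 0.38 on the same scale (adjusted p = 0.00332 and 0.00157). GAR1 rose in the knockdown by 0.37 (adjusted p = 0.0456), but that rested on sgPIKFYVE-1 replicate 2, at 25.6 CPM against 18.1 in replicate 1. Without it the GAR1 estimate was 0.13 (adjusted p = 0.516), without sgPIKFYVE-1 replicate 1 it was 0.61 (adjusted p = 0.0045), and without sgNC replicate 1 or 2 it was 0.35 or 0.39 (adjusted p = 0.102 and 0.0598). Under Torin-1 GAR1 did not pass (-0.20, adjusted p = 0.214).

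Of the 11 small subunit assembly factors, 8 rose in the knockdown and 7 fell under Torin-1, or 72.7% and 63.6%. All 45 members had 64.4% in each, and all genes 21.6% and 21.8%. RRP9, a protein of the snoRNP that guides the first cuts of the precursor, had the highest log2 fold change of all members in the knockdown. It was at 7.79 and 6.64 CPM with sgNC and 13.4 and 13.5 CPM with sgPIKFYVE-1, a rise of 86.2% (0.82 ± 0.16, adjusted p = 0.000488), with no overlap. Under Torin-1 RRP9 only just passed (-0.33, adjusted p = 0.047), and leaving out any 1 of the 6 drug libraries ended the call (-0.41 to -0.25, adjusted p = 0.0527 to 0.262). UTP20, a component of the large early particle, fell under Torin-1 from 62.0 and 55.5 CPM to 31.6 and 36.9, or by 41.7% (-0.76 ± 0.09, adjusted p = 2.72e-05), and it rose in the knockdown by 0.43 (adjusted p = 0.00113). TSR1, a GTPase-like factor of the late particle, rose by 0.48 (adjusted p = 2.38e-06) and fell by 0.36 (adjusted p = 0.000182). WDR43, of the early particle, rose by 0.36 and fell by 0.37 (adjusted p = 0.000689 and 0.000585).

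BYSL, which acts late in small subunit maturation, rose in the knockdown by 0.41 (adjusted p = 0.00408, lost without sgPIKFYVE-1 replicate 2 at 0.32, adjusted p = 0.0525) and fell under Torin-1 by 0.54 (adjusted p = 0.000635). LTV1, another late factor, and UTP4 fell under Torin-1 by 0.54 and 0.38 (adjusted p = 0.000892 and 0.000429) and did not pass in the knockdown (0.17 and 0.16, adjusted p = 0.235 and 0.08). NOP14 and UTP14A, both of the early particle, had rises of 0.44 and 0.48 in the knockdown (adjusted p = 0.000181 and 0.000188) and estimates of -0.07 and -0.05 under Torin-1 (adjusted p = 0.471 and 0.663). Reads of UTP14A can be shared with its near-identical copy UTP14C, which swung between 0 and 10.1 CPM among the drug libraries, so UTP14A is uncertain. RRP12, a nuclear export factor, rose in the knockdown by 0.26 (adjusted p = 0.0119) and lost its call without sgNC replicate 2 (0.21, adjusted p = 0.103) or sgPIKFYVE-1 replicate 1 (0.18, 0.113).

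NOB1, the endonuclease that makes the last cut to the mature RNA of the small subunit, was the only one of the 11 small subunit factors to pass as higher under Torin-1. NOB1 was at 51.0 and 49.9 CPM with DMSO, 52.8 and 48.1 with apilimod, and 100.3 and 92.9 with Torin-1. Both Torin-1 libraries lay well above the other 4, at 1.92-fold DMSO (log2 fold change 0.92 ± 0.08, adjusted p = 9.07e-07), and the call held in all 12 alternative fits with estimates of 0.87 to 0.98. In the knockdown NOB1 was at 41.1 and 46.1 CPM with sgNC and 48.9 and 46.8 with sgPIKFYVE-1 (0.13, adjusted p = 0.232).

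The large subunit factors fell under Torin-1 in 8 of 10 cases and rose in the knockdown in 5. NOP2, a methyltransferase of large subunit RNA, was at 108 and 88.9 CPM with DMSO, 102 and 104 with apilimod, and 52.7 and 45.8 with Torin-1, a fall of 50.1% (-0.98 ± 0.09, adjusted p = 2.57e-06). In the knockdown it rose by 0.65 (adjusted p = 0.000181) from 43.6 and 65.9 CPM to 85.5 and 84.5. The sgNC replicates of NOP2 were far apart, and without sgNC replicate 1 the estimate was 0.36. The knockdown call of NOP2 was lost without the filter on low values and without the variance trend. NOP16 was at 30.4 and 31.0 CPM with sgNC and 44.7 and 43.0 with sgPIKFYVE-1 (0.50, adjusted p = 0.000189), and at 49.2 and 52.3 with DMSO and 26.4 and 26.9 with Torin-1, a fall of 47.4% (-0.90, adjusted p = 2.16e-06). Neither pair of NOP16 groups overlapped. RRS1, which with RPF2 loads the smallest ribosomal RNA, rose by 0.66 (adjusted p = 0.000212), from 19.4 and 22.7 CPM to 37.5 and 30.2, and fell by 0.53 under Torin-1 (adjusted p = 0.000639). RRP1B rose by 0.40 and fell by 0.41 (adjusted p = 0.000583 and 0.000449).

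BOP1, PES1 and WDR12 form a complex needed for large subunit processing, and the 3 gave different patterns. WDR12 rose in the knockdown by 0.50 (adjusted p = 1.42e-05) and fell under Torin-1 by 0.30 (adjusted p = 0.00247). BOP1 fell under Torin-1 from 23.3 and 19.9 CPM to 14.2 and 13.3 (-0.62 ± 0.12, adjusted p = 0.00129) and had 0.21 in the knockdown (adjusted p = 0.283). PES1 did not pass in either, with 0.17 (adjusted p = 0.0939) and -0.07 (adjusted p = 0.513). Differences between these 3 genes were not tested. GNL3 (nucleostemin), a nucleolar GTPase, fell under Torin-1 by 0.36 (adjusted p = 0.000887). PPAN fell by 0.53 (adjusted p = 0.00471), a call lost without DMSO replicate 2 (-0.37, adjusted p = 0.0742), and its locus is overlapped on the same strand by the read-through gene PPAN-P2RY11, so its level is uncertain. WDR74 passed in neither comparison (0.07 and -0.17, adjusted p = 0.632 and 0.221).

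Setting the knockdown and Torin-1 side by side is possible because they have separate controls. Of the 29 members higher in the knockdown, 20 were lower under Torin-1, which is 69.0% of each list. That share is near the 64.4% of all 45 members that were lower under Torin-1. Over the 13235 genes tested in both tables, 47.4% of those higher in the knockdown were lower under Torin-1, and 10.4% of all were both, beside 44.4% of the members. MYC and NPM1 were higher in both. Another 7 were higher in the knockdown and did not pass under Torin-1 (UBTF, POLR1E, POLR3A, GAR1, RRP12, NOP14 and UTP14A), and 9 were lower under Torin-1 and did not pass in the knockdown. TAF1D, MAF1, POLR1C, POLR3B, PES1 and WDR74 passed in neither.

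**Figure D3:**
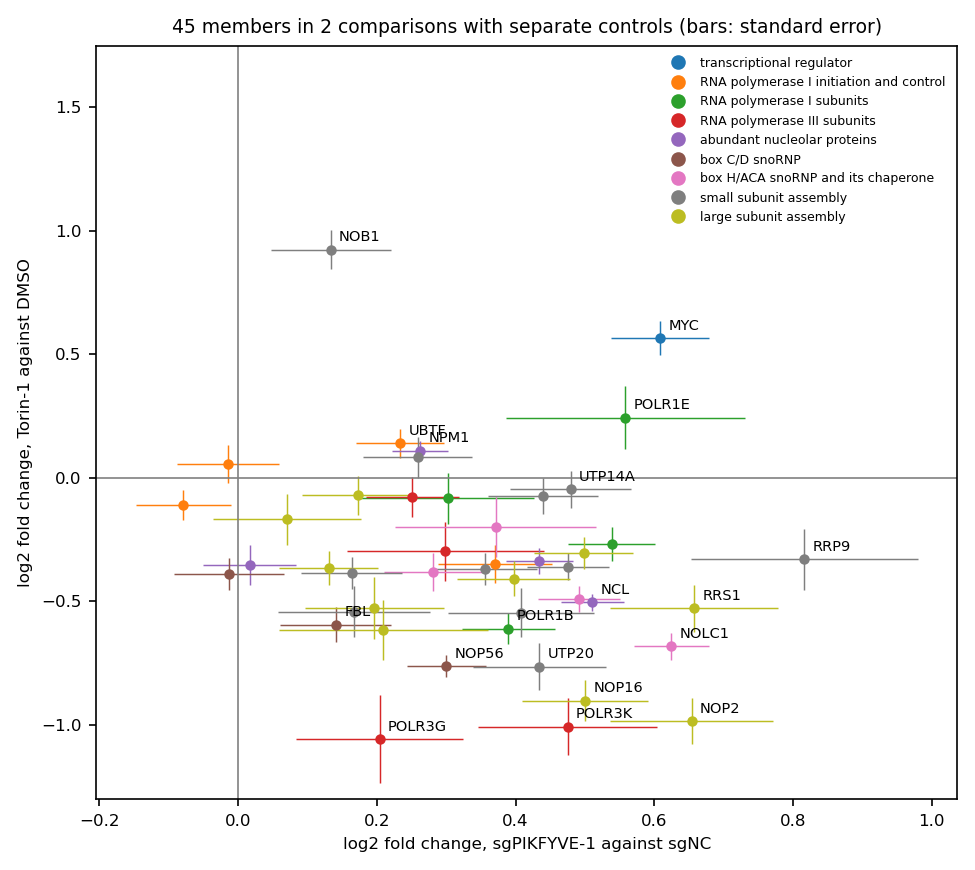
Log2 fold change with sgPIKFYVE-1 against sgNC (horizontal axis) and with Torin-1 against DMSO (vertical axis) for the 45 members, with standard errors as bars and colours for roles. Most points lie to the right of 0 and below 0, with 20 past the threshold in both comparisons. MYC (0.61 and 0.57) and NOB1 (0.13 and 0.92) lie above.

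The direct contrast of the drugs, which inhibit different kinases and were given at different doses, put 29 members higher with apilimod than with Torin-1, or 64.4%, beside 26.2% of all genes, and 3 lower (MYC, UBTF and NOB1), beside 20.5%. The differences ranged from -0.92 for NOB1 (adjusted p = 4.48e-07) to 1.15 for POLR3K (adjusted p = 2.38e-06), with 1.06 for NOP2 and 1.01 for NOP16 (adjusted p = 6.87e-07 and 3.78e-07). POLR3G, at 15.1 and 22.3 CPM with apilimod, differed by 0.87 ± 0.18 (adjusted p = 0.00114), and UTP20, at 63.7 and 60.2 CPM with apilimod, by 0.84 ± 0.09 (adjusted p = 6.44e-06). For MYC the difference was -0.34 ± 0.07 (adjusted p = 0.000987). NPM1 did not pass (-0.07, adjusted p = 0.168), but did without Torin-1 replicate 1 (-0.11, adjusted p = 0.045). The calls of RRP9 (0.39, adjusted p = 0.063) and GNL3 (0.16, adjusted p = 0.146) were lost without apilimod replicate 1, and that of GNL3 also without Torin-1 replicate 1 (0.19, 0.0821) or replicate 2 (0.21, 0.0567). Without apilimod replicate 1 the MYBBP1A difference of 0.37 was 0.24 (adjusted p = 0.0337).

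Other genes of the pathway, listed by function but with earlier results of these data known, were set beside the members. Of 144 such genes tested, 57 were higher and 5 lower in the knockdown (median log2 fold change 0.19), or 39.6% and 3.47% beside 21.6% and 20.9% of all genes. Under Torin-1, 7 were higher and 82 lower (median -0.28), or 4.86% and 56.9% beside 16.6% and 21.8%. Apilimod put 1 higher and 1 lower, or 0.694% each, beside 5.75% and 2.79% of all genes. Small subunit factors were higher in 16 of 41 in the knockdown and lower in 27 of 41 under Torin-1. Large subunit factors were higher in 25 of 54 and lower in 31 of 54, respectively, with RPF2, the partner of RRS1, at -0.81 under Torin-1. Of these 54, 1 was lower in the knockdown and 3 were higher under Torin-1. NOP53 had the lowest estimate of that list in the knockdown (-0.48) and the highest under Torin-1 (0.72). Among 10 other snoRNP genes, 7 were higher in the knockdown and 8 lower under Torin-1. ZNHIT3, a snoRNP assembly factor, was among the higher genes in both (0.69 and 0.53), though its sgNC replicates were at 13.8 and 27.5 CPM.

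The remaining polymerase genes had calls in both directions. Of 8 other RNA polymerase I genes, 12.5% were higher and 25.0% lower in the knockdown, beside 21.6% and 20.9% of all genes. Under Torin-1 the shares were the same, beside 16.6% and 21.8%. CD3EAP, a subunit also called PAF49, was higher in the knockdown (0.64, adjusted p = 0.0015) and lower under Torin-1 (-0.97, adjusted p = 5.8e-05), the lowest of that list. TAF1C and TAF1A, of the same selectivity factor as TAF1D, were lower in the knockdown (-0.60 and -0.41), and POLR1D, shared with RNA polymerase III, was higher under Torin-1 (0.51). Of 17 other RNA polymerase III genes, 5 were higher and 2 lower in the knockdown (29.4% and 11.8%, beside 21.6% and 20.9% of all genes). Under Torin-1, 1 was higher and 7 lower (5.88% and 41.2%, beside 16.6% and 21.8%). POLR3GL, the alternative to POLR3G, had 61.8 and 60.0 CPM with DMSO and 64.6 and 66.4 with Torin-1 (0.10, adjusted p = 0.35), and 44.9 and 51.0 with apilimod (-0.34, adjusted p = 0.017).

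**Figure D4:**
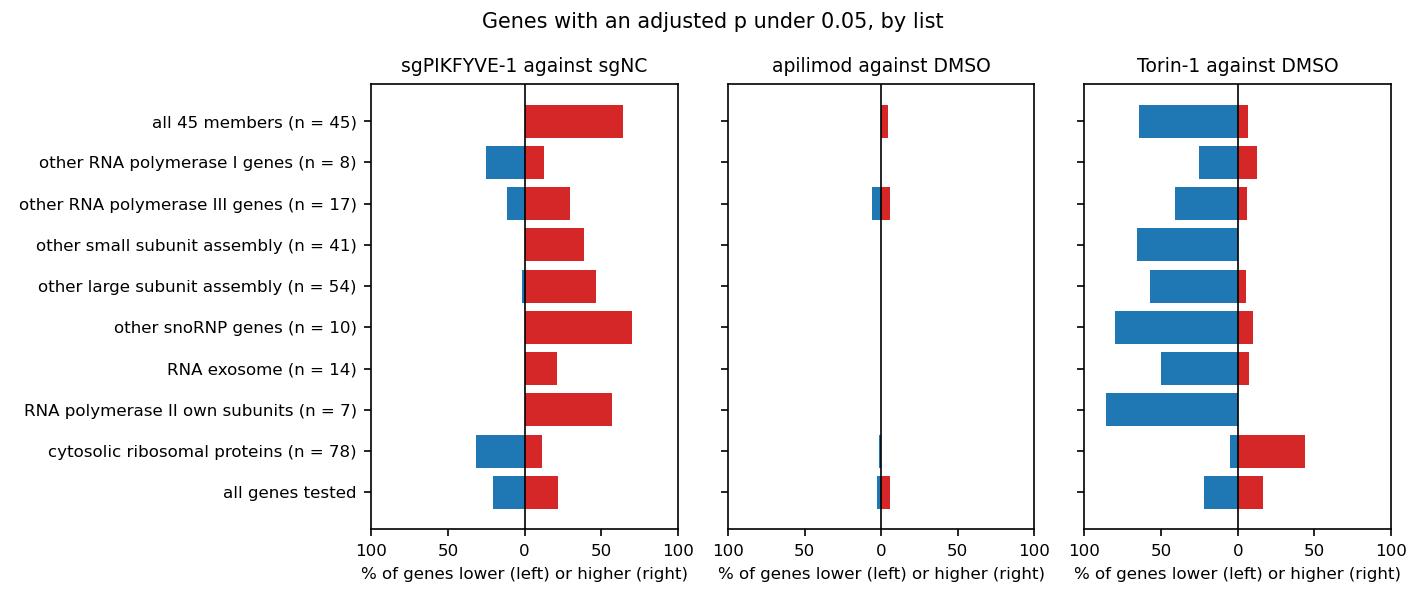
Percent of the tested genes of each list (horizontal axes) that passed as lower (left, blue) or higher (right, red) at an adjusted p under 0.05, by comparison, with all genes tested as the last bar. The members reach 64.4% higher in the knockdown and 64.4% lower under Torin-1, while the cytosolic ribosomal proteins have 32.1% lower and 43.6% higher in those comparisons.

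Genes related to the pathway but outside it were also counted. Of 7 subunits particular to RNA polymerase II, 4 were higher in the knockdown and 6 lower under Torin-1 (57.1% and 85.7%, beside 21.6% and 21.8% of all genes), and of 5 subunits that the polymerases share, all 5 were lower under Torin-1, led by POLR2L at -0.95. Of the 78 genes of the ribosomal proteins themselves, 9 were higher and 25 lower in the knockdown (median -0.06), or 11.5% and 32.1% beside 21.6% and 20.9% of all genes, and 44 did not pass. Under Torin-1, 34 were higher and 4 lower (median 0.11), or 43.6% and 5.13% beside 16.6% and 21.8%, and 40 did not pass.

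Sequence near the gene starts was examined because MYC is known to bind, with MAX, to the word CACGTG. RefSeq windows of 300 bases (250 before and 50 after the start, GRCh38.p14) were given for 35 of the 45 members. CACGTG, which is its own reverse complement and so the same on both strands, occurred in 13 of them, or 37.1%, beside 7.26% of all 35116 windows and 10.1% of the 10203 windows of genes tested in the drug table. Of the 13 members with the word, 9 were lower under Torin-1 and 8 higher in the knockdown, and of the 22 without it, 14 and 15 were. The stretches below, at most 30 bases and given 5′ to 3′ on the gene's strand with the word in capitals, show it in 4 genes that fell under Torin-1 and in 2 that did not pass.
NOP2 (chr12:6568242-6568268, minus strand): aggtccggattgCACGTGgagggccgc
UTP20 (chr12:101280083-101280112, plus strand): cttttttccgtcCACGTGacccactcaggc
FBL (chr19:39846356-39846385, minus strand): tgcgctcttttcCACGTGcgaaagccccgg
BYSL (chr6:41921515-41921544, plus strand): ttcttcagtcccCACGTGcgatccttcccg
PES1 (chr22:30591880-30591909, minus strand): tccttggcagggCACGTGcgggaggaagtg
UTP14A (chrX:129905914-129905940, plus strand): accttgggcCACGTGgaaaccaggggc
In NOP2, FBL, BYSL and PES1 the word starts 35, 6, 28 and 13 bases after the annotated start, and in UTP20 and UTP14A it starts 10 and 241 bases before it. A match describes the letters only, and no binding was measured here. Windows were not given for MYC, MAF1, POLR1E, POLR3G, NOP58, NOLC1, RRP12, RRP1B, RRS1 and BOP1.

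Some members also carry snoRNA genes within their bounds. On GRCh38 with GENCODE 29, 10 of the 45 hold 36 annotated snoRNA genes, such as NCL (chr2:231453531-231483641), with SNORA75, SNORD20 and SNORD82, and NOP56 (chr20:2652145-2658393), with 5. Of these 10 hosts, 8 were lower under Torin-1 and 5 higher in the knockdown, beside 29 of all 45 members in each.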

How the data were processed

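QGP-1 libraries were prepared, per the labels, after enzymatic removal of ribosomal RNA, whereas the study's methods describe poly(A) selection and the labels call the molecule polyA RNA. The submitters' processing notes name bcl2fastq 2.20, FastQC, Trimmomatic, edgeR, DESeq2 and hg38. The quantifier and the gene annotation are not given in the sources used here. The authors deposited 2 tables, scaled separately, of a signal on a CPM scale after TMM scaling by edgeR, with column sums of 972493 to 1024332. Whole read counts could not be recovered (62.3% to 66.5% of values under 5 CPM were whole within 0.01 read), so no count model was run. The test had been set for plain CPM, and the same log scale test was used for this TMM-scaled signal.

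In each table, the genes that averaged 1 CPM or more entered a limma 3.58.1 fit of log2(CPM + 1) (R 4.3.3, empirical Bayes, variance trend). The knockdown fit used 4 samples and the drug fit 6, and p-values were adjusted by Benjamini-Hochberg across every gene in the fit (threshold 0.05). A fold change on this scale understates the change of low genes. Errors are standard errors of the fit, and percent changes compare group means of CPM. Counts were simulated at the mean levels of all genes, with a fixed spread that was assumed rather than estimated from the replicates. There, 200 genes, drawn from all but the lowest, were changed by 0.5 (log2). Of these, 76.5% were called in the knockdown table (13596 genes tested) and 76.5% in the drug table (13506 genes). These shares do not measure the power for the members. Pairing by replicate number was not part of the main fit. Correlations of same-numbered deviations were 0.037 in the knockdown table and 0.043 to 0.104 in the drug table. Such low values cannot exclude pairing, because differences between 2 libraries are largely noise. Alternatives were a pseudocount of 0.1, no filter, a replicate block, quantile normalization, a fit without the trend, the compared groups alone, and each sample left out. Where that left 1 sample in a group, it was assumed to vary like the others.

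All 45 members are accounted for by role, and those with the 5 highest and 5 lowest log2 fold changes that passed in each comparison are given in detail, with MYC. The members and lists were chosen with earlier results of these data known. Positions come from GENCODE 29 and windows from RefSeq.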

Additional observations from a re-analysis of the deposited data

How the results depend on the processing

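Of the members called in each comparison, 18 of 29 in the knockdown kept their call in all 9 alternatives, and 27 of 32 under Torin-1 and 30 of 32 between the drugs kept theirs in all 12, but 0 of 2 did under apilimod. No member called in a comparison changed sign. Without the variance trend, the knockdown calls of UBTF, POLR3A, NPM1, NOP56, NHP2, GAR1, RRP12 and NOP2 were lost. In the knockdown, members higher numbered 21 without the variance trend, 25 without the filter and 27 to 28 with a sample left out, and members lower 0 to 1 with a sample left out. Under apilimod, members higher numbered 1 with a pseudocount of 0.1, under quantile normalization or with the compared groups alone, 0 without the filter or the variance trend, and 0 to 2 with a sample left out. The median of the members was -0.000147 under quantile normalization for apilimod and 0.014 to 0.0606 with a sample left out. For Torin-1 it was -0.31 under quantile normalization and -0.39 to -0.35 with a sample left out. Between the drugs, quantile normalization gave 5 members lower and a median of 0.29.

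A replicate block treats same-numbered samples as pairs. It gave 30 members higher and 0 lower in the knockdown, and 2 and 1 (UBTF) under apilimod. Under Torin-1 it gave 4 and 30, and between the drugs 30 and 3. Over all genes, knockdown calls higher went from 2935 to 1776 without the variance trend. Apilimod calls of 778 higher and 377 lower became 428 and 137 without the filter, 369 and 97 without the variance trend, 1055 and 701 with the block, and as few as 463 and 133 with a sample left out (DMSO replicate 2). The share of apilimod calls that were higher was 67.4%, against 55.1% under quantile normalization and 79.2% without the variance trend. Torin-1 calls higher went from 2248 to 1493 without DMSO replicate 2. The cause of these shifts was not tested. Groups of 2 libraries limit precision throughout.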

Other observations

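Genes of the wider MYC network, including its relatives MYCL and MYCN, were measured as well. Of 11 such genes, 3 were higher and 4 lower in the knockdown, 3 higher and 1 lower under apilimod, and 2 higher under Torin-1. Among all genes 21.6% were higher and 20.9% lower in the knockdown, 5.75% and 2.79% under apilimod, and 16.6% and 21.8% under Torin-1. The shares of 27.3% higher in the knockdown and 18.2% higher under Torin-1 are near those of all genes. Further from them, on only 11 genes, are 36.4% lower in the knockdown, 27.3% higher and 9.09% lower under apilimod, and 0.0% lower under Torin-1. MXI1, which competes with MYC for MAX, was at 66.9 and 71.3 CPM with sgNC and 39.2 and 42.6 CPM with sgPIKFYVE-1 (log2 fold change -0.74, adjusted p = 4.6e-07, limma), with no overlap. MXD3 and MXD4, of the same family, were lower there too (-0.79 and -0.39, adjusted p = 0.003 and 0.00022), whereas MXD1 was higher (0.27, adjusted p = 0.016). MAX itself was higher in the knockdown (0.35, adjusted p = 0.0023) and with apilimod (0.31, adjusted p = 0.04).

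Under Torin-1, MNT, a repressor that also pairs with MAX, was at 64.1 and 53.6 CPM against 31.6 and 34.2 with DMSO (0.81, adjusted p = 3.8e-05). MXD3 was also higher (0.41, adjusted p = 0.0081). MYCL and MYCN, the relatives of MYC, changed in opposite directions in the knockdown, MYCL by 0.47 (adjusted p = 3.1e-05) and MYCN, at 6.03 and 8.56 CPM with sgNC and 2.63 and 3.13 with sgPIKFYVE-1, by -1.08 (adjusted p = 0.00069). Of 14 genes of the RNA exosome, which trims ribosomal RNA, 3 were higher in the knockdown, or 21.4%, close to the 21.6% of all genes, and 7 lower under Torin-1, beside 21.8% of all genes, with EXOSC4 at -0.67.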
